A study of Homo sapiens with 4 samples.

Results

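The transcripts of 46 genes of clathrin-mediated uptake and of the ESCRT machinery were compared between MCF10A cells labelled as a double knockdown of CBL and CBLB and control cells. The genes were listed by name, and 42 of them had at least 1 probe set that named a single gene. Each was read on its brightest such probe set, and all 42 were bright enough to be tested among 12951 genes. CHMP3 and EPN2 were named by probe sets shared with other genes, and CHMP4A and PDCD6IP were not analysed here.

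MCF10A is an established human mammary epithelial line that is not tumorigenic, grown here in DFCI-1 medium. Affymetrix U133 Plus 2.0 arrays measured its RNA, 2 with RNA of cells with short hairpin RNAs (shRNAs) against Cbl and Cbl-b, called dKD arrays here after their titles, and 2 with RNA of cells given a control shRNA. The labels do not state that the arrays of a group were separate cultures or how many hairpins or clones were used. A p-value here thus reflects how far arrays of a group lie apart, and that spread may come from technique alone. The limma fit draws the spread of each gene toward that of all genes, so its SE is not that of the gene alone. Values are intensities of a probe set, and changes are differences of log2(intensity + 16), dKD minus control. CBL read 31.1 and 29.0 on the dKD arrays, against 126 and 84.4 on the control arrays, and fell (log2 change -1.37 ± 0.15 SE, adjusted p = 0.00139 by limma; -0.41 with the mean of its probe sets). CBLB read 94.8 and 99.5 on the dKD arrays, against 64.3 and 70.05 on the control arrays, and was higher (log2 change 0.45 ± 0.09 SE, adjusted p = 0.0148). That goes against its label, and the call was lost without either dKD array (adjusted p up to 0.132), so every direction below is that of the arrays labelled dKD.

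Clathrin-coated pits take up activated receptors such as EGFR. The adaptor AP-2 binds cargo and membrane lipid, clathrin heavy and light chains form the coat, EPS15 and epsins hold ubiquitinated cargo, and dynamin severs the neck of the pit. CBL proteins attach ubiquitin to such receptors, and on endosomes the ESCRT complexes act in turn on the ubiquitinated cargo: ESCRT-0, ESCRT-I and ESCRT-II gather it, ESCRT-III filaments of CHMP proteins pinch off vesicles into the endosome, and VPS4 takes the filaments apart.

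Most of these transcripts did not pass the test. UBAP1, an ESCRT-I subunit, and CHMP4C, an ESCRT-III subunit that also acts at the end of cell division, rose in dKD cells. CHMP1A, CHMP1B and CHMP2A, ESCRT-III subunits, AP2M1, the mu subunit of AP-2, and CLTB, clathrin light chain B, fell. These 7 of 42 genes, or 16.7%, passed an adjusted p under 0.05 by limma, against 16% of all genes tested, a share near the background. Of the 42, 4.76% were called higher, against 9.41% of all genes, and 11.9% were called lower, against 6.60%. The median log2 change of the 42 was -0.02, against -0.01 for all genes tested, and the median size was 0.15, against 0.14. Both dKD arrays lay above both control arrays for 10 of the 42 and below both for 15. The same held for 3644 and 3801 of the 12951 genes tested, so a lack of overlap, given for single genes below, was common over all genes. Their changes ran from -0.56 for AP2M1 to 0.63 for CHMP4C, and 26.2% of all called genes had a larger change than CHMP4C. The count fell to 1 without dKD replicate 1 and to 2 without dKD replicate 2, where the calls over all genes fell to 682 and 536, and to 4 without control replicate 1. In RNA of whole cultures, fewer cells with a transcript and less of it per cell cannot be told apart.

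**Figure D1:**
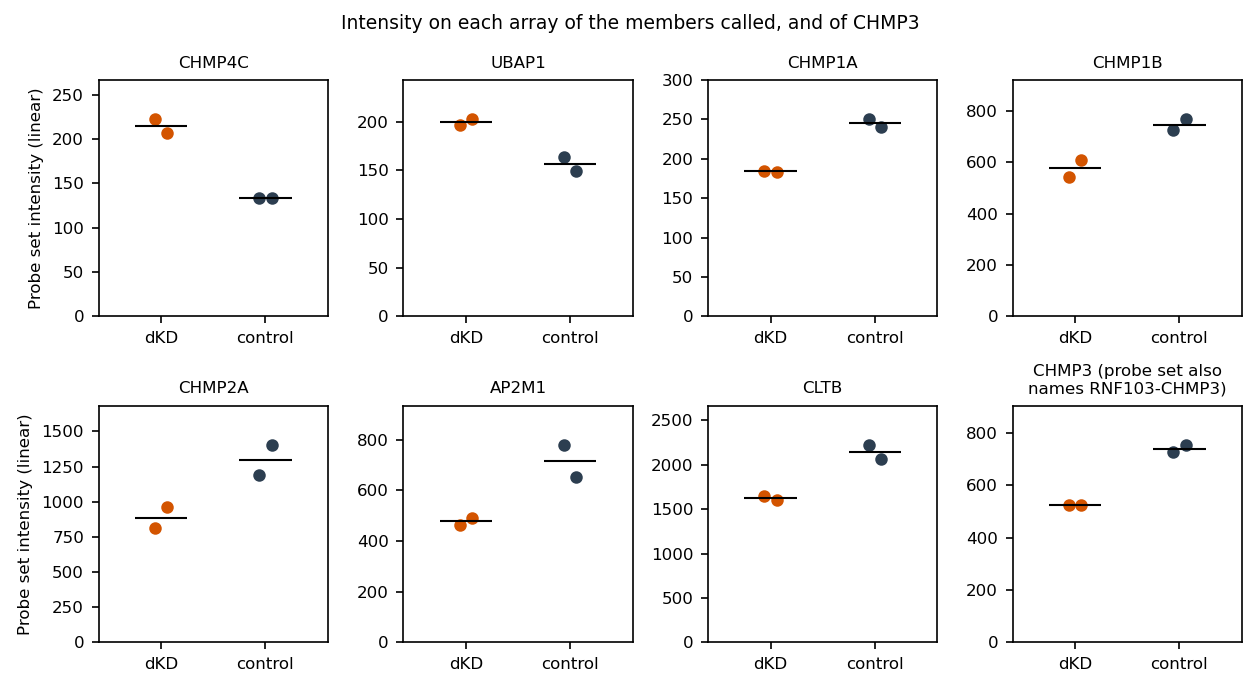
Probe set intensity on a linear scale from 0, with a point for each array and a line at the mean of 2, for the 7 genes called and for CHMP3, whose probe set is shared with RNF103-CHMP3. Both dKD arrays lie above both control arrays for CHMP4C and UBAP1 and below both for the other 6.

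The start regions of 6 of the called genes, UBAP1, which rose, and the 5 that fell, are shown for comparison by sequence. That of CHMP4C, which also rose, is not shown. Each line gives the 150 bases before the annotated start of transcription, 5′ to 3′ on the gene's strand, from RefSeq on GRCh38.p14, with the palindrome TGACGTCA in capitals, the site known for binding CREB and ATF factors. UBAP1 lies on the plus strand (chr9:34178893-34179042), and so do CHMP1B (chr18:11851263-11851412) and AP2M1 (chr3:184174705-184174854). CHMP1A (chr16:89657709-89657858), CHMP2A (chr19:58555106-58555255) and CLTB (chr5:176416570-176416719) lie on the minus strand.
UBAP1: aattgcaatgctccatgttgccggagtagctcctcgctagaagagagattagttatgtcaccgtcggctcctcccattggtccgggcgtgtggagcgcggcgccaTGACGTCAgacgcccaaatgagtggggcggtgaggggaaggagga
CHMP1B: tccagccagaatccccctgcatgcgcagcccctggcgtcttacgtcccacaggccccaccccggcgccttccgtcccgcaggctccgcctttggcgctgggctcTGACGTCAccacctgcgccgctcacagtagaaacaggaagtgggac
CLTB: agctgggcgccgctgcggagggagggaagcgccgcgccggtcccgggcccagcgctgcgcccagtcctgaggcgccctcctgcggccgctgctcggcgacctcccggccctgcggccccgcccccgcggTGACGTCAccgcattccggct
CHMP1A: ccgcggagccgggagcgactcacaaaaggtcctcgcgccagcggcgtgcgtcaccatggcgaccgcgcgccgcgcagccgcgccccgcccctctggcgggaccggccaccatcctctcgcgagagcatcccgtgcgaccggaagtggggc
CHMP2A: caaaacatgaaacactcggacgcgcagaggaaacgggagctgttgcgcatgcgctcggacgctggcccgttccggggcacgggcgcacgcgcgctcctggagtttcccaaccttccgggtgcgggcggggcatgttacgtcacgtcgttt
AP2M1: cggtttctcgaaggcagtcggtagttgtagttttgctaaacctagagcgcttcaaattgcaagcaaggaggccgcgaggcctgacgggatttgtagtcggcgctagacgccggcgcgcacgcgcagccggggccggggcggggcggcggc

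The palindrome was picked after these sequences had been read. It was searched in windows from 250 bases before to 50 bases after the start, where it reads the same on both strands, and it was found in 3 of these 6 genes, in 5 of the 34 tested genes of the set with a window and in 3.12% of 10436 windows of tested genes. It began 45 bases before the start in UBAP1, 46 in CHMP1B and 21 in CLTB, and also 86 in AP2B1 and 203 in VPS37B. The genes that hold it did not share a direction: UBAP1 was called higher, CHMP1B and CLTB were called lower, and AP2B1 and VPS37B had log2 changes of -0.08 and 0.20 and were not called. The match is a description of these letters only.

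At the plasma membrane, 1 of the 5 subunit genes of the AP-2 adaptor was called (20%, against 16% of all genes). AP2M1, whose protein reads tyrosine sorting signals on cargo, read 463 and 493 on the dKD arrays, against 778 and 652 on the control arrays. The groups did not overlap, with means of 478 ± 21.6 in dKD cells and 715 ± 89.1 in control cells (SD, n = 2 each). It fell 1.48-fold on intensity + 16 (log2 change -0.56 ± 0.11 SE, adjusted p = 0.0129). The call was lost without dKD replicate 1 (adjusted p = 0.0943) and without dKD replicate 2 (adjusted p = 0.0661).

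The other AP-2 subunits were not called. AP2A1, one of the alternative alpha subunits, had a log2 change of -0.25 (95% interval -0.56 to 0.06) and was called lower without control replicate 2 (-0.45, adjusted p = 0.0314). The other alpha subunit, AP2A2, had -0.03 (-0.24 to 0.18), the beta subunit AP2B1 -0.08 (-0.28 to 0.13) and the small sigma subunit AP2S1 0.04 (-0.15 to 0.24). Taken within each array, the log2 ratio of AP2M1 to AP2S1 differed by -0.61 ± 0.10 SE in dKD cells, and that to AP2A2 by -0.53 ± 0.06. It differed by -0.49 ± 0.17 against AP2B1 on its brightest probe set and by -0.31 ± 0.08 against AP2A1. A dimmer probe set of AP2B1, not used in the ratio, had -0.36 and was called lower when tested singly. The groups did not overlap in any of these 4 ratios. With 2 arrays a group, the two-sided exact permutation test of such a difference cannot go below p = 0.333, the value for each of 8 ratios computed here. Each of the 8 set a called gene over a relative that was not called, so a lack of overlap in them is no separate support for the calls. The SE of these ratios comes from the 2 arrays of each group alone and not from the limma fit.

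Of the clathrin genes, the light chain CLTB changed. It read 1654 and 1599 on the dKD arrays, against 2219.5 and 2065 on the control arrays, with no overlap. It fell 1.31-fold on intensity + 16 (log2 change -0.39 ± 0.09 SE, adjusted p = 0.0226), and 2 further probe sets gave changes of -0.54 and -0.47, both called lower when probe sets were tested singly. Its call was lost without control replicate 1 (adjusted p = 0.0646), dKD replicate 1 (0.121) or dKD replicate 2 (0.177), and with a constant of 1 in place of 16 (0.0530). The other light chain, CLTA, read 2751 and 2744 on the dKD arrays, against 3018 and 3104 on the control arrays, and was not called (log2 change -0.16, 95% interval -0.35 to 0.04). On its next brightest probe sets the arrays overlapped, with changes of -0.01 and 0.01. The heavy chain CLTC, which forms the legs of the clathrin triskelion, had a log2 change of -0.02 (-0.21 to 0.18). Within arrays, the log2 ratio of CLTB to CLTA differed by -0.24 ± 0.08 SE and that of CLTB to CLTC by -0.38 ± 0.07 in dKD cells, without overlap.

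The remaining pit genes were not called. PICALM, which recruits clathrin and sorts SNARE proteins, had a log2 change of 0.11 (95% interval -0.09 to 0.31), and the ubiquitously expressed dynamin DNM2 0.04. Among the ubiquitin-binding adaptors, EPS15 had 0.11. Its relative EPS15L1 had -0.05 and the epsin EPN1 0.03, both on much dimmer probe sets. EPS15L1 had means of 31.0 in dKD and 32.8 in control cells, and EPN1 47.1 and 45.7. EPN3, an epsin of epithelia, read 67.9 and 84.9 on the dKD arrays, against 111 and 91.3 on the control arrays. The groups did not overlap, but the arrays within each differed, and the change of -0.34 ± 0.12 SE was not called (adjusted p = 0.101). Its second probe set had -0.28 (adjusted p = 0.0691).

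**Figure D2:**
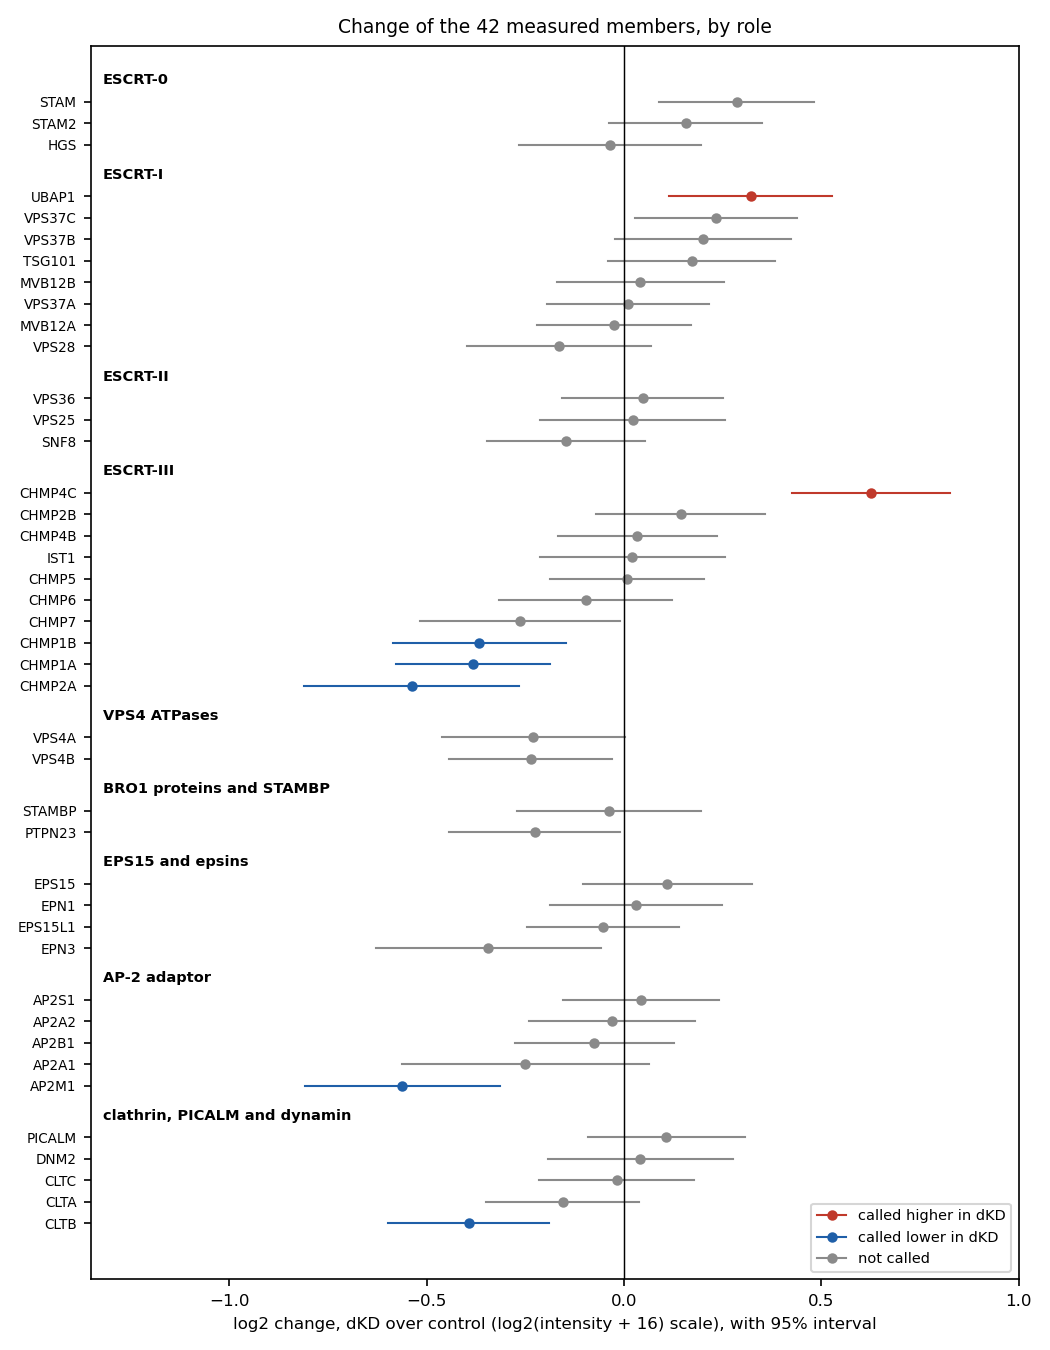
Log2 change, dKD over control, with its 95% interval, for the 42 genes grouped by role. CHMP4C and UBAP1 lie to the right among the called genes, and CHMP1A, CHMP1B, CHMP2A, AP2M1 and CLTB to the left; most other intervals cross 0.

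On endosomes, ESCRT-0 binds the ubiquitinated cargo first. None of its 3 genes was called by limma, and 1 had an unadjusted p under 0.05, as had 3959 of the 12951 genes tested. HGS, its core subunit, had a log2 change of -0.04 (95% interval -0.27 to 0.20). STAM, which binds HGS and ubiquitin, read 273 and 269.5 on the dKD arrays, against 215 and 225 on the control arrays, without overlap. Its change of 0.29 ± 0.08 SE just missed the threshold (adjusted p = 0.0578). It passed with cyclic loess normalization (0.0480) and with a constant of 32 in place of 16 added before the log (0.0421). It also passed in the fit that averaged the probe sets of each gene (0.0270). STAM has only 1 probe set, so its own values and change were the same in that fit. Its paralog STAM2 had 0.16 ± 0.08 SE on the brightest probe set (adjusted p = 0.257). A dimmer probe set of STAM2 read 71.7 and 73.5 on the dKD arrays, against 51.8 and 56.2 on the control arrays, and was called higher when tested singly (0.34, adjusted p = 0.0408).

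ESCRT-I links ESCRT-0 to the later complexes. UBAP1, the subunit that directs ESCRT-I to endosomal sorting, read 196 and 202 on the dKD arrays, against 164 and 149 on the control arrays. The groups did not overlap, and it rose 1.25-fold on intensity + 16 (log2 change 0.32 ± 0.09 SE, adjusted p = 0.0478). Its second probe set read 176 and 180.04 on the dKD arrays, against 147 and 141 on the control arrays (0.28 ± 0.09 SE). Among single probe sets neither passed (adjusted p = 0.0547 and 0.0708), and the call of the gene was lost without control replicate 2 (0.117), dKD replicate 1 (0.203) or dKD replicate 2 (0.273). It was also lost with quantile normalization (0.0518), a trended prior (0.0622), a constant of 1 (0.0796) or no brightness filter (0.0600).

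The other 7 ESCRT-I genes were not called. TSG101, the ubiquitin-binding subunit shared by all forms of the complex, had a log2 change of 0.17 (95% interval -0.04 to 0.38). VPS28, which contacts ESCRT-II, had -0.17 (-0.40 to 0.07). The alternative VPS37 subunits had 0.01 for VPS37A, 0.20 for VPS37B and 0.23 for VPS37C. VPS37C read 244 and 259 on the dKD arrays, against 205 and 219 on the control arrays, without overlap (adjusted p = 0.117). MVB12A and MVB12B, the subunits that can stand in for UBAP1, had -0.03 and 0.04. In ESCRT-II, VPS36 had 0.05, VPS25 0.02 and SNF8 -0.15, and none passed even an unadjusted p of 0.05 by limma.

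ESCRT-III held 4 of the 7 calls, in both directions. Of its 10 tested genes 3 fell (30%, against 6.60% of all genes) and 1 rose (10%, against 9.41%), so that 40% were called, against 16%. These shares of a small complex were not tested against other genes. CHMP2A, a late-acting subunit that helps recruit VPS4, read 815 and 959 on the dKD arrays, against 1191 and 1400.5 on the control arrays. There was no overlap, although the arrays of each group differed, with means of 887 ± 102 in dKD cells and 1296 ± 148 in control cells (SD, n = 2 each). It fell 1.45-fold on intensity + 16 (log2 change -0.54 ± 0.12 SE, adjusted p = 0.0207) and lost its call without dKD replicate 1 (0.149) or control replicate 2 (0.0669). It was also lost without a brightness filter (0.0696).

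The CHMP1 pair, whose proteins bind VPS4 and the microtubule-severing enzyme spastin, fell together. CHMP1A read 185 and 184 on the dKD arrays, against 250.1 and 239.99 on the control arrays (log2 change -0.38 ± 0.08 SE, adjusted p = 0.0216). CHMP1B read 543 and 609.8 on the dKD arrays, against 727 and 767 on the control arrays (-0.37 ± 0.09 SE, adjusted p = 0.0370). Neither pair of groups overlapped, and on intensity + 16 the fall was 1.30-fold for CHMP1A and 1.29-fold for CHMP1B. CHMP1A lost its call without control replicate 1 (0.0578), dKD replicate 1 (0.141) or dKD replicate 2 (0.160). CHMP1B lost it whichever array was left out, at adjusted p from 0.0601 to 0.270, and its second, dimmer probe set had -0.22 and was not called (adjusted p = 0.162). Without probe sets of the _s_at or _x_at types, which left CHMP1B to that dimmer one, its adjusted p was 0.158, and the call was also lost without a brightness filter (0.0640) and with a constant of 1 (0.0732).

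CHMP4C stood opposite to these genes. It read 222 and 207 on the dKD arrays, against 133 and 134 on the control arrays, with means of 215 ± 10.5 in dKD cells and 133 ± 0.607 in control cells and no overlap (SD, n = 2 each). It rose 1.54-fold on intensity + 16 (log2 change 0.63 ± 0.09 SE, adjusted p = 0.00368), and it kept its call under all 15 alternatives, those that left out an array included, at adjusted p up to 0.0429. It rests on 1 probe set, as do the calls of AP2M1, CHMP1A and CHMP2A. For CHMP4C, the alternatives in probe set choice and brightness filter therefore left its own intensities as they were. CHMP4B, the more general form of the main filament subunit, read 813 and 865 on the dKD arrays, against 804 and 834 on the control arrays. The arrays overlapped and it was not called (log2 change 0.03, 95% interval -0.17 to 0.23), while a much dimmer probe set had -0.30 (adjusted p = 0.0837). Within arrays, the log2 ratio of CHMP4C to CHMP4B was 0.59 ± 0.09 SE higher in dKD cells, without overlap.

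Other ESCRT-III genes did not pass. CHMP2B, the paralog of CHMP2A, had a log2 change of 0.14 on its brightest probe set, 0.02 on the next and -0.22 on the dimmest, and none was called. Within arrays, the log2 ratio of CHMP2A to CHMP2B differed by -0.68 ± 0.09 SE in dKD cells. CHMP5 and IST1 had changes of 0.01 and 0.02. CHMP6, on a dim probe set with means of 41.6 in dKD and 45.6 in control cells, had -0.10. CHMP7, which also seals the nuclear envelope, read 90.2 and 87.9 on the dKD arrays, against 123 and 98.6 on the control arrays (-0.26 ± 0.11 SE, adjusted p = 0.148), and was called lower without control replicate 2 (-0.40, adjusted p = 0.0371).

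CHMP3, the partner of CHMP2A in the filament, was covered by 3 probe sets that also name the read-through RNF103-CHMP3, and 1 of them RNF103 too. They were added to the test of single probe sets after the data had been seen. The brightest read 524.4 and 524.3 on the dKD arrays, against 725 and 752 on the control arrays (log2 change -0.48 ± 0.08 SE, adjusted p = 0.0119). The other 2 had -0.38 (adjusted p = 0.0272) and -0.42 (adjusted p = 0.0399). All 3 were called lower, and which of the named transcripts they read cannot be told apart. The 2 probe sets of EPN2 above the brightness minimum, which also name EPN2-IT1, had -0.02 and 0.00.

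The VPS4 ATPases, which disassemble ESCRT-III, were not called. VPS4A read 218 and 221 on the dKD arrays, against 282 and 239.9 on the control arrays (log2 change -0.23 ± 0.10 SE, adjusted p = 0.166). VPS4B read 666 and 608 on the dKD arrays, against 749 and 754 on the control arrays (-0.24 ± 0.09 SE, adjusted p = 0.117). Neither overlapped between groups. PTPN23, the Bro1-domain phosphatase HD-PTP that takes part in EGFR sorting, had -0.23 ± 0.09 SE (adjusted p = 0.148). STAMBP, the deubiquitinase AMSH that removes ubiquitin from cargo at ESCRT-0, had -0.04 (95% interval -0.27 to 0.20). Of the 35 genes not called, 32 had a 95% interval within 0.5 of 0 on the log2 scale.

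**Figure D3:**
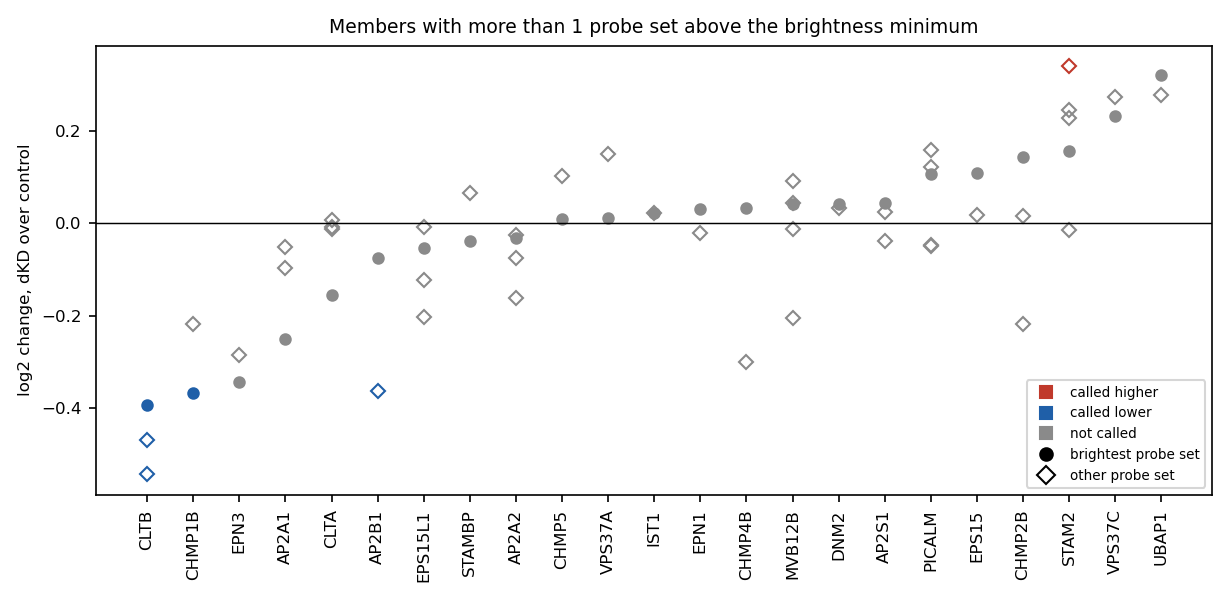
Log2 change, dKD over control, of every probe set above the brightness minimum for the 23 genes that had more than 1, with circles for the brightest and open diamonds for the others, coloured by the test of single probe sets. The 3 probe sets of CLTB lie together below 0, while CHMP2B, MVB12B and PICALM have probe sets on both sides of 0; UBAP1, called as a gene, is grey here.

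Probe sets of one gene did not always match. The 42 genes had 84 probe sets above the minimum, and 10 of these (11.9%) were called when probe sets were tested singly, 2 higher and 8 lower, against 13.7% of 22904 probe sets. Of 23 genes with more than 1 such probe set, 9 had changes of both signs, and none had probe sets called in both directions. AP2B1 was not called on its brightest probe set, but the second read 269 and 255 on the dKD arrays, against 322 and 362 on the control arrays, and was called lower (log2 change -0.36, adjusted p = 0.0446).

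Other genes of uptake and endosomal transport were then counted in 7 lists. Of 143 genes tested in all, 14 were called (9.79%, against 16% of all genes), and the median log2 change was 0.03. Of the 14, 6 were higher (4.20% of the 143, against 9.41% of all genes) and 8 lower (5.59%, against 6.60%). The 14 fell to 3 without dKD replicate 1 and to 2 without dKD replicate 2.

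Among accessory proteins of the clathrin pit, 2 of 38 rose (5.26%, against 9.41% of all genes) and 1 fell (2.63%, against 6.60%). CLINT1, an epsin-like adaptor of the trans-Golgi network, read 1494 and 1419 on the dKD arrays, against 1092 and 988 on the control arrays (log2 change 0.48, adjusted p = 0.0133). ITSN2, an intersectin scaffold, rose (0.42, adjusted p = 0.0148), and HIP1, which ties the pit to actin, fell (-0.57, adjusted p = 0.00963). With probe sets averaged, HIP1 had -0.30 and ITSN2 0.22, and neither was called. CLINT1 and ITSN2 lost their calls without dKD replicate 1 or 2, at adjusted p up to 0.111 for CLINT1 and 0.137 for ITSN2, and HIP1 without dKD replicate 2 (0.0934).

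Among ESCRT cofactors and other ubiquitin adaptors, 1 of 23 was called (4.35%, against 16% of all genes). CEP55, which brings ESCRT proteins to the midbody of dividing cells, read 219 and 203 on the dKD arrays, against 162 and 149 on the control arrays (log2 change 0.40, adjusted p = 0.0233), and lost its call without control replicate 2 or either dKD array (up to 0.183). USP8 and the other genes of that list did not pass.

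Genes of early endosome tethering and of its lipid PI3P gave 1 rise and 2 falls among 20. These were 5% and 10% of the 20, against 9.41% and 6.60% of all genes. EEA1, the tether that joins early endosomes, read 320.4 and 361 on the dKD arrays, against 185 and 208 on the control arrays. It rose 1.68-fold on intensity + 16 (log2 change 0.75 ± 0.10 SE, adjusted p = 0.00344) and kept its call in all 15 alternatives, with a change of 0.45 for the mean of its probe sets. RIN2, an exchange factor for RAB5, fell (-0.47, adjusted p = 0.0127), as did BECN1, a subunit of the PI3-kinase complex (-0.38, adjusted p = 0.0332). RIN2 lost its call without dKD replicate 1 or 2 (up to 0.130) and BECN1 when any array but control replicate 1 was left out (up to 0.210), and both with probe sets averaged (-0.19 for RIN2 and -0.24 for BECN1). BECN1 also lost it without a brightness filter (0.0620) and with a constant of 1 (0.0648).

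The adaptors AP-1, AP-3 and AP-4, relatives of AP-2 on internal membranes, gave 1 rise and 2 falls among 17, all in AP-1. These were 5.88% and 11.8% of the 17, against 9.41% and 6.60% of all genes. AP1S2 read 562 and 583 on the dKD arrays, against 354 and 349.5 on the control arrays (log2 change 0.68 ± 0.08 SE, adjusted p = 0.00232), but with the mean of its probe sets the change was 0.15 (adjusted p = 0.186). AP1B1 had -0.49 (adjusted p = 0.0151) and its partner AP1S1 -0.45 (adjusted p = 0.0287). AP1B1 lost its call without dKD replicate 1 or 2 (up to 0.113) and AP1S1 when any array but control replicate 1 was left out (up to 0.155), without a brightness filter (0.0736) and with a constant of 1 (0.0559).

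Of 25 genes of retromer, retriever and recycling, 1 was called by limma (4%, against 16% of all genes). CCDC22, which works with retriever, fell (log2 change -0.41, adjusted p = 0.0228), a call that was lost without control replicate 2 or either dKD array. None of 10 CORVET and HOPS genes, the tethers of early and late endosomes, was called by limma. Of the 10, 1 had an unadjusted p under 0.05, TGFBRAP1 (-0.33, unadjusted p = 0.0138, adjusted p = 0.0706), as had 3959 of the 12951 genes tested.

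Uptake that does not use clathrin had a median log2 change of -0.21 over 10 genes. Of these, 1 rose (10%, against 9.41% of all genes) and 2 fell (20%, against 6.60%), shares of a small list that were not tested. CAV1, the main coat protein of caveolae, read 3838 and 3580.2 on the dKD arrays, against 4896 and 4547 on the control arrays, and fell (-0.35, adjusted p = 0.0389). Its coat partner CAVIN1 fell too (-0.50, adjusted p = 0.0231), while FLOT1, a flotillin, rose (0.49, adjusted p = 0.0110). CAV1 was not called with quantile (0.0585) or cyclic loess normalization (0.0659), with a constant of 1 (0.0807) or without a brightness filter (0.0564), and CAVIN1 was not called without that filter (0.0707). CAV1 and CAVIN1 lost their calls without control replicate 1 or either dKD array (up to 0.275 and 0.137), and FLOT1 without either dKD array (up to 0.115). With the mean of its probe sets FLOT1 had 0.24.

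**Figure D4:**
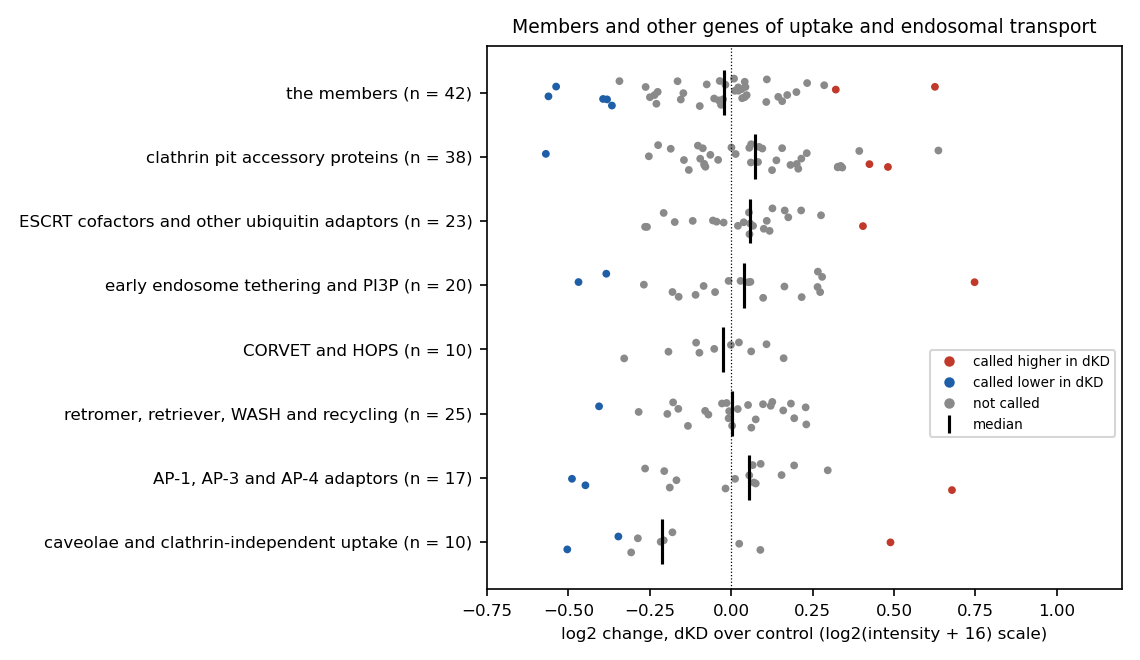
Log2 change, dKD over control, of each tested gene (points, spread vertically for legibility) in the 42-gene set and in 7 lists of other uptake and endosomal genes, with a line at each median. Medians lie near 0 except for the list of caveolae and other clathrin-independent uptake at -0.21. EEA1 and AP1S2 are the called genes farthest to the right.

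Levels of some cell type markers differed between the groups as well. All 14 mammary epithelial markers with a probe set were above the minimum, and 7 of them (50%) were called, against 16% of all genes, 4 higher (28.6%, against 9.41%) and 3 lower (21.4%, against 6.60%). The basal keratin KRT14 read 4710 and 4266 on the dKD arrays, against 13558 and 14078 on the control arrays, and its partner KRT5 read 4824 and 4872 on the dKD arrays, against 8245 and 7866 on the control arrays. Both fell, as did the desmosome gene DSP (log2 change -0.47). The luminal keratins KRT8 (0.65) and KRT18 (0.53), the laminin chain LAMB3 (1.08) and EPCAM (0.40) rose. The summed intensity of the list, 42530.5 to 44025 on the dKD arrays and 52687 to 54616 on the control arrays, thus adds changes of both directions.

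Of 10 leukocyte markers with a probe set 6 were above the minimum, and PTPRC was below it. Their sum was 288 to 293 on the dKD arrays and 238 to 240.3 on the control arrays, a difference carried by LCP1, which read 189 and 199 on the dKD arrays, against 143.6 and 143.8 on the control arrays. The other 5 overlapped between groups and were not called. Of 13 endothelial and fibroblast markers 5 were above the minimum, and VWF, CDH5 and COL3A1 were below it. Their sum was 258 to 260.3 on the dKD arrays and 339 to 341 on the control arrays, and most of that difference was DCN, the only one called, at 54.9 and 77.9 on the dKD arrays, against 128 and 127 on the control arrays. The part of these marker differences in the results above was not tested.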

How the data were processed

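Values for 54675 probe sets on 4 arrays were taken as the authors deposited them. Their range is that of linear intensities. For these deposited intensities, the steps the authors took from scan to probe set (background correction, summary, normalization) are not given in the sources used here. Array medians ran from 14.5 to 14.7, and no further normalization was applied. Probe sets naming 1 gene in the platform annotation (41091) were given current symbols from the RefSeq gene table, and 62 control probe sets were left out. Genes on their brightest probe set were kept at a mean of 14.7, the median of all probe sets, or above.

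Log2(intensity + 16) was tested two-sided with lmFit and eBayes and no covariate (limma 3.58.1, under R 4.3.3), with Benjamini-Hochberg adjustment over 12951 genes, or over 22904 single probe sets. Fold changes are of intensity + 16 and understate those of dim genes. Calls have an adjusted p under 0.05. No set was tested as a whole. The genes, the lists and the naming rule (all genes of the set, and up to 4 called genes of each wider list by smallest p) were chosen with earlier results of these data known. Start regions came from RefSeq (GRCh38.p14). Alternatives covered the constant, normalization, probe set choice, brightness filter, prior, replicate block and each array left out.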

Additional observations from a re-analysis of the deposited data

How the results depend on the processing

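With each array left out in turn, the calls over all genes ran from 536 to 1995, those among the clathrin and ESCRT genes from 1 to 6 (higher 1 to 2, lower 0 to 5, the 0 being without dKD replicate 1, where 5 genes were lower at an unadjusted limma p under 0.05) and those in the wider lists from 2 to 18; these fits take the spread of the lone array from the other group. Of the 7 calls 4 were left without a brightness filter (1 higher, 3 lower), with a constant of 1 (1 higher, 3 lower) and without _s_at and _x_at probe sets (2 lower), a setting that left only 28 of the 42 genes to test. Quantile normalization and a trended prior each left 1 call higher, that of CHMP4C. The arrays share sample numbers, but nothing in the labels pairs them, and the deviations of same-numbered arrays from their group means correlated at 0.24 across genes. With the sample number as a replicate block, 7 of the 42 genes and 2504 genes in all were called. Among the called genes of the set and those named from the wider lists, none turned its direction in any alternative, nor did CBL or CBLB. The cell type markers and the shared probe sets of CHMP3 were not followed through the alternatives. The number of arrays limits the precision of every value.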
